A study of Mus musculus with 36 samples.

Results

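The cytosolic ribosomal protein genes were followed over 8 days of differentiation of Xmas mouse embryonic stem cells (mESCs). The members were all genes of the expression table on chromosomes 1 to 19 whose symbol is Rpl or Rps with a number and an optional a, x or l, together with Rplp0, Rplp1, Rplp2 and Rpsa. This rule gave 79 members of 25965 genes, 31 of the small and 48 of the large subunit, spread over 18 chromosomes. All 79 were among the 14612 genes with enough reads to be tested. The X-linked genes Rps4x, Rpl10, Rpl36a and Rpl39, and Fau and Rpl36al, whose symbols do not match the rule, were read separately.

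Xmas mESCs are female C57/Bl6 lines in which GFP reports on 1 X chromosome and mCherry on its homolog. They were grown without feeders in medium with inhibitors of MEK and GSK3 (2i) and LIF, weaned stepwise into serum medium without LIF (DME HiHi), and sampled every day from day 0 to day 8 as bulk RNA. Each day has 4 libraries. On every day replicate 1 is X14 double, replicate 2 X14 single, replicate 3 X18 double and replicate 4 X18 single, where X14 and X18 are cell lines and double and single are used only as names, since the labels do not explain them. No treatment other than the change of medium separates the days, and the differentiation is not directed to a single cell type.

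Ribosomal proteins assemble with ribosomal RNA in the nucleolus and cytoplasm into the small subunit, which reads the mRNA, and the large subunit, which joins the amino acids. Their genes are among the most strongly expressed of a growing cell and are usually regulated together, in part through a short run of pyrimidines (C or T) at the start of their mRNAs that couples translation to mTOR signalling. Several members have paralogs with restricted expression. Rpl39l and Rpl10l are known from the male germ line, and Rpl39l also from embryonic stem cells.

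A library held 612740 to 2445826 reads in genes, and reads in the 79 members from 17389 to 74763. The summed level of 10 mESC markers, among them Pou5f1, Sox2 and Nanog, fell from 8242 RPM (reads per 1000000 reads of the library) on day 0 to 934 RPM on day 8, with 10 of 10 lower. A list of 8 trophoblast genes, which simple epithelia also express in part (Krt8, Krt18), went from 106 RPM (range 81.2 to 129) to 3591 RPM (2415 to 5216) with 8 of 8 higher. The 8 fibroblast genes summed to 3.59 RPM (0 to 10.7) on day 0 and 54.1 RPM (40.4 to 79.7) on day 8, with 5 of 8 higher, 1 lower, and Lum and S100a4 at 0 on day 8. The 8 visceral endoderm genes summed to 4.34 RPM (0 to 9.72) and 12.1 RPM (2.61 to 24.3), with 2 of 8 higher, 4 lower, and Afp, Apoa1, Ttr, Amn and Cubn at 0 on day 8. The part of other cell types in the results below was not tested, and in bulk RNA fewer cells of a type and less RNA per cell cannot be told apart. The X14 pair of day 0 stood apart. The balance of 569 X-linked genes against autosomal genes was higher in double than in single in 17 of 17 other pairs of day and line, by 0.26 to 1.31 on the log2 scale, but was lower by -1.35 in X14 on day 0, so these libraries go against their labels, and results are given with and without them.

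The paralog Rpl39l and its X-linked partner Rpl39 are shown first, because their courses differ most and because reads can be told apart only where the sequences differ. Both coding sequences hold 156 bases, 85.3% identical, with 23 bases that differ (capitals). The longest identical stretch is 38 bases, so no window of 75 bases, the read length, is the same in both. The Rpl39l sequence lies at chr16:10174310-10174465 on the plus strand, within a single exon. The Rpl39 sequence is spliced from exons between 37082701 and 37085127 on the minus strand of the X chromosome (GRCm38, the build named mm10 in the processing notes). Rpl10l and Rpl10, with 645 coding bases each, differ at 98 bases (84.8% identity).
Rpl39l: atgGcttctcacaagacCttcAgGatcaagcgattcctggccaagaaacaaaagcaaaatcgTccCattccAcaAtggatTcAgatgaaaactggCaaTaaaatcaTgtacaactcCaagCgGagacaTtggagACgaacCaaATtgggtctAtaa
Rpl39: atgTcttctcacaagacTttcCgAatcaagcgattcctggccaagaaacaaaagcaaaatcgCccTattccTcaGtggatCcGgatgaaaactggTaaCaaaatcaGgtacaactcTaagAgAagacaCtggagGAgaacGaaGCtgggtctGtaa

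Promoters in RefSeq (GRCm38.p6) matched 59 of the 79 members. A run of at least 8 C or T within 20 bases of the annotated start stood in 32 of the 59 (54.2%), against 23.7% of the 27025 genes with a promoter. A C as the first base of the mRNA, opening a run of at least 5 C or T, stood in 13 (22.0%), against 3.01%. The letters CCGGAA, searched on both strands over 300 bases, stood in 33 (55.9%), against 16.7%. The 30 bases around the start are printed for 4 members that hold such a run and for the 3 paralogs that left the common course, with runs of at least 8 C or T in capitals. Of the 3 paralogs none has such a run in the bases printed, and Rpl39l has one just outside them.
Rps18 (chr17:33955651-33955680, minus strand): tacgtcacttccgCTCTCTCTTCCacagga
Rps6 (chr4:86857353-86857382, minus strand): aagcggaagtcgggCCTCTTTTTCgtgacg
Rpl28 (chr7:4792950-4792979, plus strand): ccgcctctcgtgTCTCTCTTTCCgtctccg
Rplp2 (chr7:141447636-141447665, plus strand): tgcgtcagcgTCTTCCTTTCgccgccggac
Rpl39l (chr16:10170213-10170242, plus strand): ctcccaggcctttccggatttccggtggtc
Rpl10l (chr12:66284387-66284416, minus strand): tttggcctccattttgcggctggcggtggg
Rpl7l1 (chr17:46782642-46782671, minus strand): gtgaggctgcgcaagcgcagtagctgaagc

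The median log2 fold change from day 0 to day 8 was -0.75 in the members with a run within 20 bases of the start and -0.74 in the 27 without, so the sizes of the change were alike.

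The members together took 3.50% ± 1.34 (SD, n = 4) of the reads of a library on day 0, the counted share of all reads that the authors scaled to. On day 0 the share was 1.94% in X14 double, 2.90% in X14 single, 4.93% in X18 double and 4.24% in X18 single. It was 2.28%, 2.24%, 2.45% and 2.89% in the same order on day 4, and 1.27%, 1.69%, 2.54% and 3.44% on day 8. The ranges of day 0 and day 8 overlapped, and in both the X18 libraries were higher than the X14 libraries. From day 1 to day 4 the mean share was 3.04% ± 0.855, 2.30% ± 0.534, 2.15% ± 0.162 and 2.47% ± 0.298. It was 3.46% ± 1.31 on day 5, where X14 double stood at 5.41% and the other 3 libraries between 2.60% and 3.05%, and 1.97% ± 0.169, 2.17% ± 0.388 and 2.23% ± 0.963 on days 6, 7 and 8. The share on day 8 was 0.655, 0.581, 0.514 and 0.812 of that on day 0 in replicates 1 to 4, lower in 4 of 4, and the ratio of the day means was 0.638. On day 4 the ratios were 1.18, 0.774, 0.497 and 0.682, higher in X14 double and lower in the other 3. These ratios pair the X14 libraries of day 0 by labels that they go against. X14 single on day 4 (2.24%) lay above X14 double on day 0 (1.94%). With the X14 labels of day 0 exchanged, the rise would stand in X14 single. On day 8 both X14 libraries lay below both of day 0.

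**Figure D1:**
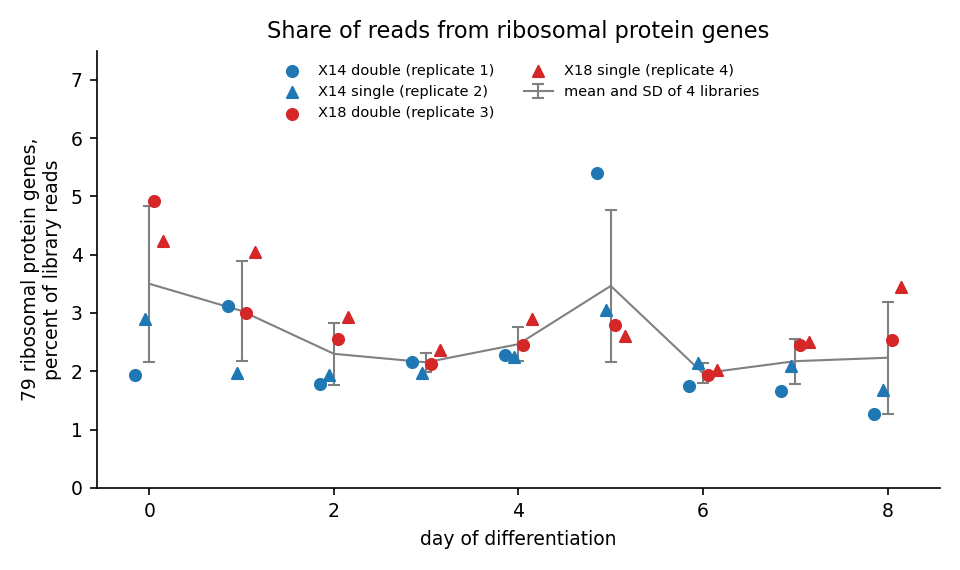
Percent of each library's reads that came from the 79 ribosomal protein genes (vertical axis) by day of differentiation (horizontal axis), with 1 point per library and a grey line with bars for the mean and SD of the 4 libraries of a day. The spread on days 0, 5 and 8 is wide, and day 5 X14 double at 5.41% is the highest of the 36 points.

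The share rests on few genes, since the 10 highest members held 57.8% of the members' RPM. Each gene was therefore also compared with day 0 on the log2 scale. The comparisons of days 1 to 8 with day 0 share the 4 day 0 libraries and are not independent of each other. From day 1 to day 8, in order, the median log2 fold change over the 79 members was -0.12, -0.48, -0.59, -0.43, -0.12, -0.83, -0.68 and -0.72. That over all genes tested was 0.08, 0.15, 0.04, 0.12, 0.09, 0.24, 0.26 and 0.23. The median of the members thus fell against that of all genes within the first 3 days. It stood nearer to its starting level on day 5 and was lowest from day 6. How far it fell depended on the day 0 libraries, and the day 5 value moved without X14 double, both given below. Scaling to the 75th percentile moved the median of all genes on day 8 to 0.02 and that of the members to -0.92, and quantile normalization moved them to -0.09 and -0.55.

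A gene was called when its adjusted p in limma was under 0.05 and its change at least 2-fold. No member was called lower on day 1 (0.0342% of all genes) or day 2 (0.876% of all genes), where 0 and 24 members had an unadjusted p under 0.05. The shares of all genes with such a p were not counted here or below. On day 3 only Rps18 and Rpl17 were called lower (3.17% of all genes), and 3 members on day 4 (6.4% of all genes). On day 5, 6 members were called lower (11% of all genes) and 1, Rpl12, higher (15.8% of all genes). On day 6, 26 were called lower (11% of all genes), on day 7, 21 (11.6% of all genes), and on day 8, 22 (11.1% of all genes), with no member called higher. By adjusted p alone 5 members were lower on day 4 (9.42% of all genes) and 35 on day 8 (16.5% of all genes). The shares of members called on days 6 to 8 were thus above the background and those of days 4 and 5 near it or below. With the replicate number as a block, 2 members were called lower on day 2 (1.4% of all genes in that fit), 7 on day 3 (3.87%) and 5 on day 4 (6.94%), so that the last of these stayed near the background.

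On day 8, 76 of 79 members had a point estimate below day 0 (40.7% of all genes), and 55 were lower in 4 of 4 line and label pairs (19.1% of all genes tested). The X14 pairs rest on day 0 libraries that go against their labels. Only 9 had all 4 day 8 libraries below all 4 day 0 libraries (9.26% of all genes), namely Rpl39l, Rpl10l, Rpl7l1, Rpl23a, Rps27a, Rpl27, Rpl10a, Rps16 and Rps13. The small subunit had a median of -0.76 and the large subunit one of -0.68 on the log2 scale, close to each other. Of the 79, 34 were called lower on at least 1 day (20.2% of all genes), 45 on none and 13 on each of days 6, 7 and 8 (7.14% of all genes). Over all 9 days 32 members (40.5%) changed by adjusted p, against 65.2% of all genes. Most members were thus lower on day 8 in the mean. How many of them passed the adjusted p depended on the fit, with 35 as reported above, 42 with the replicate block (17.9% of all genes), 48 after scaling to the 75th percentile (21.4%) and 46 with a gene length trend, described below, removed in each library (23.7%). These fits raised the count, and others lowered it. Without the X18 libraries of day 0 and with the block, for example, Rps18 (adjusted p = 0.0586 in limma) and Rps27a (adjusted p = 0.0735) no longer passed. Only 4 of the 35 kept an adjusted p under 0.05 under every alternative run, and Rps13 kept it in 6 of 18.

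**Figure D2:**
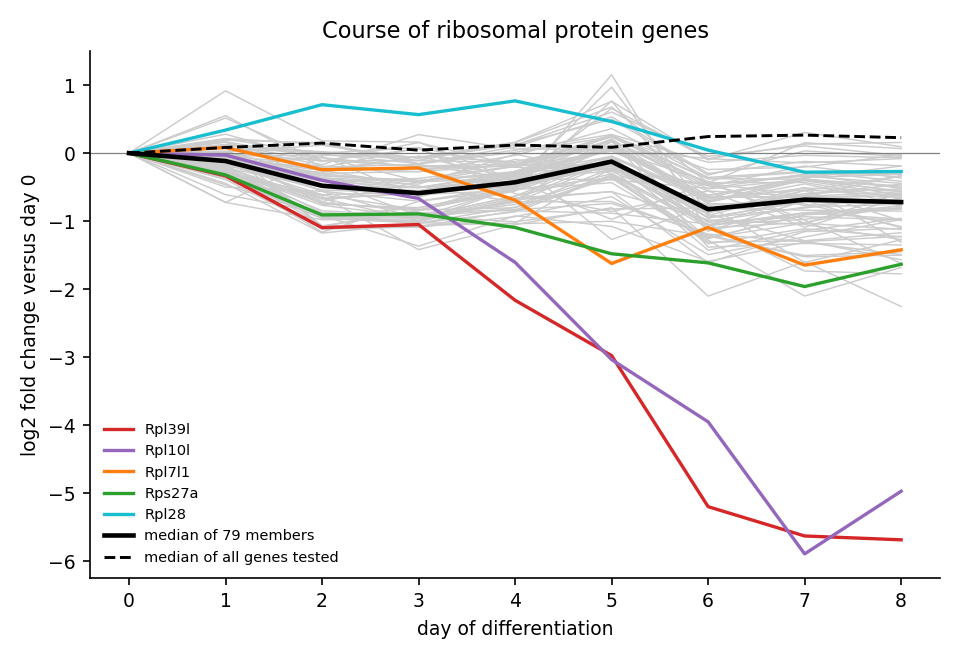
Mean log2 fold change versus day 0 (vertical axis) by day (horizontal axis), with 1 grey line for each member, coloured lines for 5 members, a black line for the median of the 79 members and a dashed line for the median of all genes tested. Most members stay between the dashed line and a fall of 2 log2 units, and Rpl39l and Rpl10l leave the others from day 4.

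The later stretch was weaker. From day 4 to day 8 the median over the members was -0.28 and that of all genes 0.10, and 71 of 79 were lower (45.8% of all genes). Rpl39l, Rpl10l, Rpl27 and Rpl28 were called lower with at least 2-fold (9.01% of all genes), and 5 by adjusted p alone (13.4% of all genes). With day 1 as the start in place of day 0, an alternative chosen after the data were seen, the median to day 8 was -0.57 and 13 members were called lower (10.3% of all genes).

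How far the members fell depended on the day 0 libraries. Median changes from day 0 to day 8 were -0.70 in X14 double, -0.84 in X14 single, -0.98 in X18 double and -0.28 in X18 single. From day 0 to day 4 they were 0.21, -0.39, -0.95 and -0.61, and from day 4 to day 8 -0.96, -0.46, -0.02 and 0.27. X14 double thus went down after day 4 and both X18 series before it. The X14 changes from day 0 pair libraries that go against their labels. Without the X14 libraries of day 0 the day 8 median was -1.20 with 45 members called (12.3% of all genes called lower in that fit), and on day 4 24 were called (8.38%). Without the X18 libraries of day 0, left out after the data were seen, the day 8 median was -0.24 with 4 members called (9.83% of all genes), a share below the background, and on day 4 the median was 0.06 with 0 called (4.89%), where 0 members had an unadjusted p under 0.05. The share on day 8 was 0.487 of day 0 without the X14 pair and 0.923 without the X18 pair.

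The stalk proteins Rplp0, Rplp1 and Rplp2, which recruit translation factors to the large subunit, stayed close to the common course. Rplp0 measured 716, 972, 1397 and 1520 RPKM (RPM per kilobase of exon) in replicates 1 to 4 on day 0, and 478, 630, 706 and 1096 RPKM on day 8. All 4 fell, but the ranges overlapped. The log2 fold changes to day 8 were -0.67 for Rplp0 (adjusted p = 0.0225 in limma), -0.72 for Rplp1 (adjusted p = 0.0336) and -0.75 for Rplp2 (adjusted p = 0.0171). Rpl12, at the base of the stalk, departed from them on day 5, where it measured 157, 61.8, 56 and 53.3 RPKM against 19.8, 24.8, 61.8 and 38.9 RPKM on day 0. The day 5 rise was 1.15 (adjusted p = 0.00766), and 0.79 (adjusted p = 0.0547) without X14 double, the shallowest library. The other 3 libraries of day 5 also lay above every library of day 4 (20.3 to 26 RPKM) and day 6 (14.1 to 15.6 RPKM). On day 8 Rpl12 was lower by -1.10 (adjusted p = 0.00834).

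Rpl5 and Rpl11, which carry the small 5S RNA of the large subunit and bind the p53 regulator Mdm2, did not pass the test, at -0.08 (adjusted p = 0.86) and -0.59 (adjusted p = 0.456) on day 8. Rpl11 had between 0 and 30 reads in the 36 libraries. Rps27a, which is made as a fusion with ubiquitin, left the common course. It measured 12.2, 16.9, 36.5 and 25.5 RPKM on day 0, 13, 10.5, 6.85 and 9.95 RPKM on day 4, and 3.69, 6.9, 7.5 and 10.9 RPKM on day 8. Each day 8 library lay below each day 0 library. Its log2 fold change reached -1.09 by day 4 (adjusted p = 0.0326) and -1.63 by day 8 (adjusted p = 0.000729). Without the X18 libraries of day 0 the latter was -1.09 (adjusted p = 0.0622).

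Of the other members with a known role, Rps3, at the entry of the mRNA channel, had a log2 fold change of -0.98 on day 8 (adjusted p = 0.0184). Rps18, in the head of the small subunit, was lower by -1.23 (adjusted p = 0.00148), and Rpl13a by -1.12 (adjusted p = 0.024). Rpl38, known for its part in the translation of Hox mRNAs, was lower by -1.78 (adjusted p = 0.0277) but with 12, 27, 22 and 26 reads on day 0 and 1, 6, 18 and 9 reads on day 8. Rps6, the target of S6 kinase, was lower by -1.62 (adjusted p = 0.0163) on 2 to 4 reads in each day 8 library. Rps3a was lower by -0.62 (adjusted p = 0.0248) and Rpl10a by -1.08 (adjusted p = 0.00459). Rpsa, also described as a laminin receptor, did not pass the test at -0.50 (adjusted p = 0.152), nor did Rps19, known from Diamond-Blackfan anaemia, at -0.19 (adjusted p = 0.731).

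Rpl39l, the paralog of a protein that lines the exit tunnel of the ribosome, departed furthest. Because it was named in the choice of genes with its course known, its day values are a description. It measured 38.4, 83.6, 241 and 107 RPKM in replicates 1 to 4 on day 0, and 45.3, 11.7, 33.9 and 11.5 RPKM on day 4. On day 8 it measured 1.87, 0, 4.19 and 2.86 RPKM, from 3, 0, 4 and 2 reads. Every day 8 library lay below every day 0 library, and days 6 to 8 held libraries with no read. A count of 0 allows up to 3 reads, which over all 36 libraries of the series is 1.04 to 3.90 RPM by library. From a mean of 97.6 ± 72.5 RPM at the start it fell to 21.3 ± 14 RPM (day 4), 15.7 ± 17 RPM (day 5), 2.97 ± 3.44 RPM (day 6) and 1.85 ± 1.47 RPM (day 8), a ratio of 52.7. The fitted log2 fold change, for which a gene without reads counts as 0.9 read, was -2.16 on day 4 and -5.68 (SE 0.736) on day 8. It was -6.44 without the X14 libraries and -4.93 without the X18 libraries of day 0.

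Rpl39, the X-linked partner of Rpl39l, took another course. It measured 54.2, 173, 282 and 118 RPKM on day 0, 112, 60.9, 140 and 81.7 RPKM on day 4, and 61.9, 47.4, 124 and 141 RPKM on day 8. The ranges overlapped, and 2 of the 4 line and label pairs were higher on day 8 than on day 0. The log2 fold change to day 8 was -0.65 (SE 0.437, adjusted p = 0.228 in limma), near the common course. Of the 75-base windows of the Rpl39 transcript 7.62% also occur in other genes, and of those of Rpl39l none. Per length, and with that limit, Rpl39l stood within the spread of Rpl39 on day 0, 117 ± 87.2 against 157 ± 96.3 RPKM, and far below it on day 8, 2.23 ± 1.76 against 93.5 ± 45.8 RPKM.

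Rpl10l followed a course like that of Rpl39l. It measured 63.9, 137, 198 and 113 RPKM on day 0, 72.4, 13.3, 71.7 and 32.9 RPKM on day 4, and 8.64, 2.38, 9.38 and 0 RPKM on day 8, from 17, 5, 11 and 0 reads. The day 8 libraries all lay below the day 0 libraries. Its mean level of 131 ± 57 RPM at the start was little changed a day later (125 ± 46.4 RPM). It then came to 48.6 ± 30 RPM by day 4, 18.6 ± 13.3 RPM by day 5 and 5.21 ± 4.73 RPM by day 8, a ratio of 25.1. The log2 fold change was -4.97 (SE 0.68, adjusted p = 3.58e-07) on day 8. On day 4 it was -1.61, with an adjusted p of 0.0786 and of 0.00573 with the replicate block. Rpl10, its X-linked partner, was lower by -1.42 (SE 0.387, adjusted p = 0.00315) on day 8, from 16.9, 22.1, 45.1 and 17 RPKM to 8.34, 9.47, 11 and 6.37 RPKM. Since 91.9% of the 75-base windows of the Rpl10 transcript also occur in other genes, its level is uncertain, while for Rpl10l the figure is 0.316%.

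Rpl7l1, which is related to Rpl7 and to an assembly factor of the nucleolus, fell least of the 3 paralogs but with the least scatter. It measured 102, 148, 183 and 185 RPKM on day 0, 87.2, 91.6, 88.4 and 106 RPKM on day 4 and 42.4, 65.1, 49.8 and 72.1 RPKM on day 8. The groups of day 0 and day 8 did not overlap. The log2 fold change of -1.42 to day 8 had an SE of 0.185 and an adjusted p of 1.4e-07. By day 4 the change had been -0.69 (adjusted p = 0.00567) and by day 5 -1.62 (adjusted p = 2.67e-08). On day 5, when the median of the members stood at -0.12, Rpl7l1 was thus at its low level. Rpl7 itself was lower by -0.69 (adjusted p = 0.0185) on day 8, from 139, 190, 262 and 274 RPKM to 74.8, 106, 163 and 217 RPKM, with overlapping ranges.

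**Figure D3:**
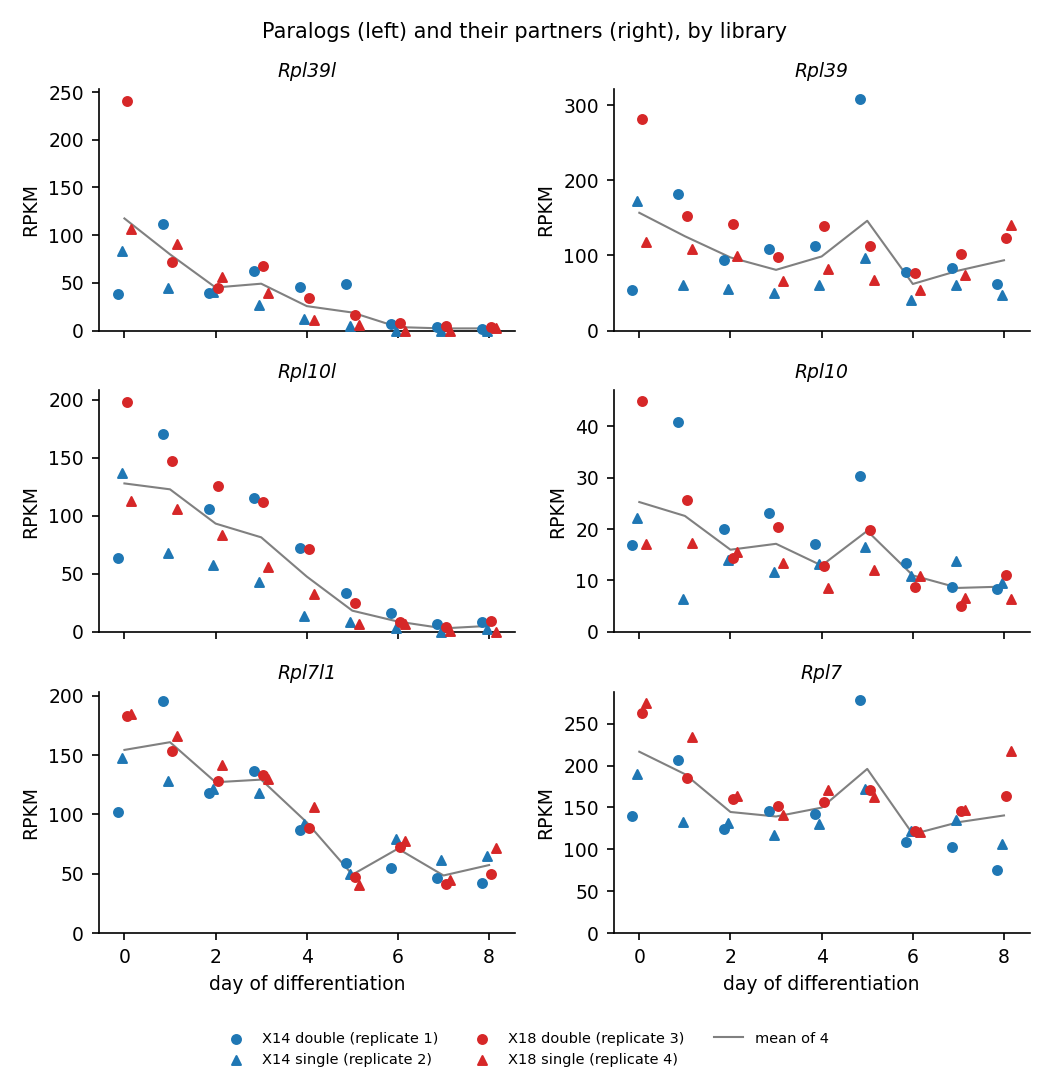
RPKM (vertical axes, from 0) by day (horizontal axis) for Rpl39l, Rpl10l and Rpl7l1 on the left and their partners Rpl39, Rpl10 and Rpl7 on the right, with 1 point per library and a line for the mean of 4. Rpl39l and Rpl10l approach 0 from day 6, where the lowest value of Rpl39 is 40.5 RPKM and that of Rpl7 is 74.8 RPKM. Rpl10 is itself low there, down to 5.01 RPKM. On day 6 it lies at 8.75 to 13.5 RPKM, within the range of Rpl10l (3.63 to 16.1 RPKM).

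The other pairs could be compared only in part. Rpl22l1 was lower by -1.11 (adjusted p = 0.0214) on day 8 and Rpl22 by -0.56 (adjusted p = 0.0876). Rps27l, known as a target of p53, was lower by -1.23 (adjusted p = 0.0129), but its partner Rps27 had 0 to 2 reads in each library of days 0 and 8 and gives no fold. Rpl3 was lower by -0.57 (adjusted p = 0.0451), while Rpl3l, a paralog of heart and skeletal muscle, had at most 4 reads in any library and none on day 8. Of the genes outside the rule, Rps4x (-0.49, adjusted p = 0.149), Rpl36a (-0.67, adjusted p = 0.378) and Rpl36al (-0.71, adjusted p = 0.0767) did not pass the test on day 8. Fau, another fusion with a ubiquitin-like protein, was lower by -1.18 (adjusted p = 0.00607).

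Some members showed little or no change in the fit on day 8. Rpl4, which lines the exit tunnel and was among the highest members, measured 1719, 1761, 1298 and 1819 RPKM on day 0 and 1114, 1378, 2014 and 2089 RPKM on day 8. The 4 values of day 8 enclose those of day 0, and the log2 fold change was -0.04 (SE 0.202, adjusted p = 0.898). Rpl23 (0.07, SE 0.257) and Rps2 (-0.02, SE 0.352) did not pass the test either. On day 5 Rpl4 was higher by 0.60 (adjusted p = 0.0188) and Rpl23 by 0.68 (adjusted p = 0.0375). Without X14 double of day 5 the rises were 0.57 for Rpl4 (adjusted p = 0.0358) and 0.64 for Rpl23, which then did not pass (adjusted p = 0.0676).

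Rpl28 and Rpl27 fell mainly after day 4, which was not particular to them. Rps6 (-1.21), Rpl23a (-1.20), Rps16 (-1.14) and Rpl34 (-1.03) had changes of like size from day 4 to day 8 but were not called. Rpl28 measured 11.4, 8.54, 6.32 and 12 RPKM on day 0, 20.7, 17.1, 18.8 and 9.36 RPKM on day 4 and 7.3, 5.98, 7.65 and 10.5 RPKM on day 8, on 7 to 38 reads. It was higher on day 4 in 3 of 4 pairs, with a log2 fold change of 0.77 (adjusted p = 0.0535, and 0.0476 with the replicate block), and fell by 1.04 from day 4 to day 8 (adjusted p = 0.00665). Rpl27 was at -0.13 on day 4 (adjusted p = 0.799) and fell by 1.14 from day 4 to day 8 (adjusted p = 0.00391), to -1.27 against day 0 (adjusted p = 0.000928). Rps23 was already lower by -1.04 on day 4 and by -1.45 on day 8 (adjusted p = 0.00206).

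Low reads limit the remaining calls. Of the 22 members called lower on day 8, 11 had under 20 reads in every day 8 library. Rpl23a, for example, had 9, 8, 10 and 6 reads on day 0 and 1, 3, 1 and 2 reads on day 8 (-2.25, adjusted p = 0.00111). Rps16 (-1.68, adjusted p = 0.0202) and Rps13 (-1.50, adjusted p = 0.0461) had at most 6 reads in a day 8 library. Rpl34 (-1.57, adjusted p = 0.0108) was better covered, with 38, 117, 168 and 85 reads on day 0 and 15, 35, 23 and 49 on day 8. Rpl17 was lower by -1.49 (adjusted p = 0.00787), again on few reads, with 20, 17, 19 and 17 on day 0 and 2, 15, 6 and 7 on day 8. Of the 34 members other than Rpl39l that were lower by adjusted p, 3 of those named here kept it under each of up to 19 alternatives, namely Rpl10l, Rpl7l1 and Rpl23a.

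Double and single libraries were compared over all days with day and line in the fit. Rpl10l was higher in double by 1.46 on the log2 scale (SE 0.203, adjusted p = 8.32e-06 in limma) and Rpl39l by 1.33 (SE 0.26, adjusted p = 0.000619). These 2 members were called higher (2.05% of all genes) and 0 lower (0.944% of all genes), where 7 members had an unadjusted p under 0.05 in either direction and voom on the recovered reads called 1 higher. Without X14 double of day 5, left out after the data were seen, some members were lower in double by adjusted p, each by under 2-fold. They were Rps27 (-0.84, adjusted p = 0.00771, on 0 to 6 reads), Rpl13a (-0.39, adjusted p = 0.0461) and Rpl15 (-0.32, adjusted p = 0.0319). The share of all genes in that fit is not given here. Each label consists of only 2 series, 1 in each line, followed over 9 days, so the p-values treat libraries of 1 series as independent and are too small if a series keeps its own level. With each pair of day and line as a block, chosen after the data were seen, the same 2 were called (adjusted p = 0.000138 for Rpl10l and 0.00122 for Rpl39l). On day 4 Rpl10l had 110 reads in X14 double and 21 in X14 single, and 130 in X18 double and 60 in X18 single. Rpl10l was higher in double on 8 of 9 days in X14 and on 9 of 9 in X18, and Rpl39l on 7 of 9 days in each line. The exception of Rpl10l was day 0 of X14, the pair that goes against its labels, without which the differences were 1.61 for Rpl10l and 1.47 for Rpl39l. Rpl7l1 did not differ beyond its error, at -0.12 (SE 0.0841, adjusted p = 0.358). The X-linked Rpl39 was higher in double on 8 of 9 days in each line and Rpl10 on 6 of 9.

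Gene length was examined because ribosomal protein genes are short. The merged exon length had a median of 1422 bases in the members (255 to 6262) and 3490.5 bases in all genes tested. Genes that are no members showed a trend with length from day 0 to day 8. Their median log2 fold change was -0.35 among the 737 with over 500 and up to 1000 bases, 0.06 among those with over 1500 and up to 2000, and 0.59 above 6000 bases. The 22 members with over 500 and up to 1000 bases had a median of -0.82, and the members lay below the other genes of their length in each of the 8 length classes. At the lengths of the members the trend had a median of -0.11 (-0.31 to 0.50) on day 8 and -0.14 on day 4. With the trend subtracted the day 8 median of the members was -0.69 and that of all genes -0.02, and 19 members were called lower (14.9% of all genes in that fit, against 11.1% before). Among the members themselves the 40 shorter had a median of -0.80 and the 39 longer one of -0.59.

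**Figure D4:**
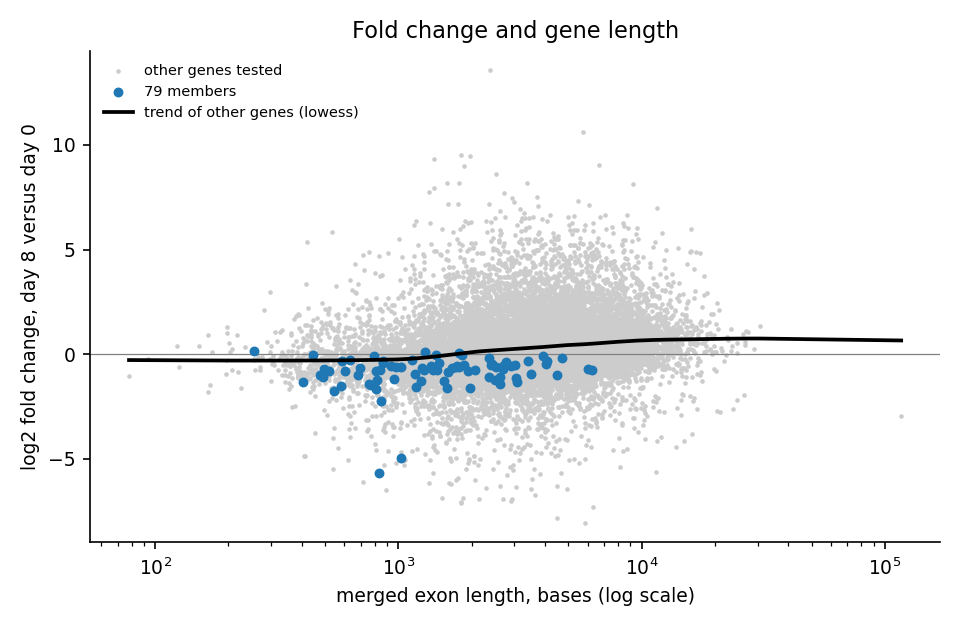
Log2 fold change from day 0 to day 8 (vertical axis) against merged exon length in bases (horizontal log axis) for the 79 members in blue and the other genes tested in grey, with the lowess trend of the other genes as a black line. Most members lie below the trend, including those over 2000 bases.

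Removing the trend within each library, chosen after the data were seen, gave a day 8 median of -0.67 with 21 members called by exon length (15.3% of all genes called lower), and of -0.53 with 16 called by the length of the main transcript (15.1%). The slope of the other genes' log2 values on log2 length differed between libraries, from -0.50 in X18 double on day 0 to 0.34 in X14 double on day 8, and its mean was -0.22 on day 0, -0.02 on day 4 and 0.08 on day 8. Of the 9 libraries with the highest member share, 8 were among the 9 with the most negative slope. The slope therefore moved with the member share, and its part in the decline was tested only by these subtractions.

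**Figure D5:**
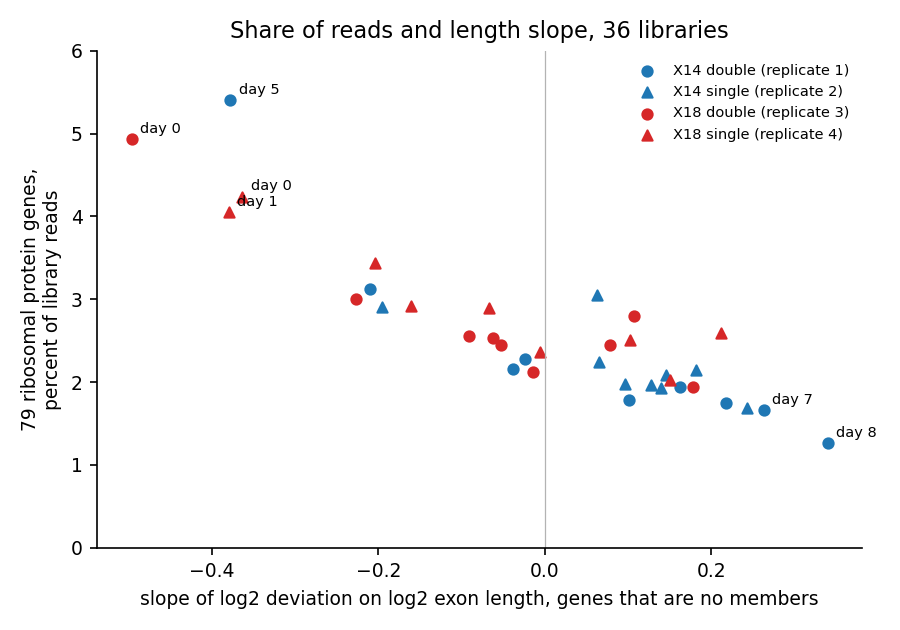
Percent of reads from the 79 members (vertical axis) against the slope of log2 deviation on log2 exon length of the other genes (horizontal axis), with 1 point for each of the 36 libraries. The 4 libraries with the highest share have slopes of -0.36 or below, and day 8 X14 double has the lowest share and the highest slope.

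Levels of single members cannot be read as an order of expression, because many share reads with processed pseudogenes. Of the 79 members 74 had a 75-base window that also occurs in a pseudogene, and 4, Rps3, Rpl39l and Rpl3l among them, shared no window with any gene. The mean level over 36 libraries had a median of 302 RPKM in the 13 members with under 10% of windows shared, 76.1 RPKM in the 32 with 10% to 50%, and 20.5 RPKM in the 34 with more. The day 8 medians of these classes were -0.82, -0.66 and -0.74 on the log2 scale. Called lower were 4 of 13, 5 of 32 and 13 of 34 members (11.1% of all genes), the middle class being nearest to that background. The decline of the median was thus seen in each class, while the low levels lay mainly in the class that shares most.

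Other genes of translation, listed from knowledge of the field, also had medians below 0 on day 8, when 16.5% of all genes were lower and 29.2% higher by adjusted p. Of 76 mitochondrial ribosomal protein genes 36 were lower by adjusted p and 0 higher (median -0.62), with Mrps24 at -2.46, Mrpl15 at -1.66 and Mrpl1 at -1.45. Of 39 ribosome biogenesis genes 20 were lower and 0 higher (median -0.51), with the pseudouridine synthase Dkc1 at -1.97, Rrp9 at -1.49 and Nop56 at -1.39. These biogenesis genes had a median of 0.48 on day 3 with 16 higher (8.6% of all genes), when that of the ribosomal proteins was -0.59. On that day the median was -0.29 in the mitochondrial list, 0.15 in the initiation list and -0.05 in the elongation list described next. From day 4 to day 8, 30 of the 39 biogenesis genes were lower (13.4% of all genes, median -0.83). Of 28 initiation factors and regulators 13 were lower and 3 higher on day 8 (median -0.47), with Eif2s2 at -2.09, the X-linked Eif1ax at -1.55 and the inhibitor Eif4ebp1 at -1.19. Of 13 elongation factors and other genes with pyrimidine starts 4 were lower and 1 higher (median -0.50). Eef2 rose by 1.07 (adjusted p = 0.000964), Btf3 was at -0.80 (adjusted p = 0.0207) and Vim at -0.68 (adjusted p = 0.076).

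Over the 9 daily means in RPM the genes most like Rpl39l, among 10816 with at least 10 RPM on their highest day, were Chek1 (Pearson's r = 0.993), which halts the cell cycle after DNA damage, Gm9631 (r = 0.993) and 2410076I21Rik (r = 0.992). Chek1 had 184 ± 40.8 RPM on day 0 and 47.7 ± 20.5 RPM on day 8, and 2410076I21Rik 66.3 ± 19.9 and 1.99 ± 2.09 RPM. A value of at least 0.98 was reached by 27 genes, and with 9 points that share 4 line and label pairs the likeness is only a description.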

How the data were processed

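RNA-seq libraries were made from 36 samples (9 days, 4 libraries each) of total RNA, grouped by the day in their titles. Single-end sequencing gave reads of 75 bp. Trimming used trim_galore, alignment to mm10 used tophat or hisat2, and SeqMonk did the quantification, as the study states. The submitters' processing notes name bcl2fastq and TopHat2 2.0.12. Annotation version and use of strand are not given in the sources used here. The authors deposited log2 values. These behave as log2 RPKM, with a gene without reads written as 0.9 read. Under this rule 100% of the genes resolved to whole reads within 0.01 read, which gave the reads and RPM used here. The lowest chi-squared per gene between libraries of a day was 1.23, so no pair of libraries looked like repeats of 1 library. Counting floors of 3 reads cover counting error only.

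Genes with at least 1 RPM in 4 or more libraries were tested with limma 3.58.1 in R 4.3.3 (lmFit, eBayes with trend) on the log2 values, with all libraries and the factor day in 1 fit. Tests were two-sided with Benjamini-Hochberg adjustment over all 14612 genes. Double and single were compared with label, day and line in the fit. Log2 values, exon lengths and 75-base windows shared with other GENCODE transcripts were read per gene, and the length trend was a lowess (span 0.3) over genes that are no members. The libraries of a day differ in line and label, and the day fit holds neither, so its p-values measure a spread that includes both. The labels do not say whether libraries came from separate dishes, so part of this spread may be technical. The same series were followed over all days, and the fits without a block treat their libraries as independent.

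A replicate number marks the same line and label on every day in the titles, so the numbers pair the libraries. For X14 this pairing is in doubt on day 0, where the libraries go against their labels. It enters the ratios by replicate, the counts of line and label pairs and the replicate block. The correlation of same-numbered deviations from the day means was 0.12 to 0.19 between days 8 and 4, 0.02 to 0.30 between days 8 and 0 and -0.17 to 0.19 between days 4 and 0. Named members were the 5 highest and 5 lowest changes on day 8, those called in a main comparison, paralogs with their partners, members with a listed role, and up to 3 examples per list. The members, gene lists and tests were chosen with earlier results of these data known. Alternatives covered scaling, filters, pseudocount, voom on the recovered reads, the replicate block, length and libraries left out. Results of a few genes are not reported here. The fits were tested on simulated data.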

Additional observations from a re-analysis of the deposited data

Results flagged for a closer look

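One result stood apart within its group of 4 libraries. The share of reads from the 79 members on day 5 was 5.406% in X14 double (replicate 1) and 2.598% to 3.052% in the other 3 libraries, a gap of 0.838 of the group's range, above the 95% limit of Dixon's test for 4 values. It was the only 1 of 45 groups examined past that limit, and chance alone puts about 1 in 20 groups past it. This library was the shallowest of the 36, with 612740 reads in genes. Without it, an alternative chosen after the data were seen, the day 5 median of the members was -0.32 and 7 were called lower and 0 higher. The share of all genes called in that fit is not given here. The part of depth and of the length slope in this value was not tested.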

How the results depend on the processing

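The direction of the day 8 median (-0.72) held under each alternative run, from -1.20 to -0.24, and the median moved by more than the spread between the 4 line and label pairs where day 0 lost a line. Without the day 0 libraries of X14 it was -1.20, 45 members were called on day 8 and 24 on day 4, the share on day 8 was 0.487 of day 0, and 1, 23, 30, 17, 48 and 39 members were called on days 1, 2, 3, 5, 6 and 7. Without the day 0 libraries of X18, left out after the data were seen, it was -0.24, 4 members were called on day 8 and 0 on day 4, the day 4 median turned to 0.064, the share ratio was 0.923, and 0, 3, 2 and 6 members were called on days 3, 5, 6 and 7. With the replicate block as well, chosen later too, the day 8 medians were -1.07 without X14 and -0.35 without X18, with 35 and 4 members called, and 19 and 0 on day 4. The cause was not tested. The share of all genes called also differed between the fits, as given above for days 4 and 8. Counts in this section without that share do not tell a change of the members from one of all genes.

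The replicate block alone gave 5 members on day 4, 2 on day 2 and 7 on day 3, and the counts of the other days and the calls of named members on day 8 stayed on their side. For double against single the replicate number could not be a block, since each number belongs to 1 label. With each pair of day and line as a block, chosen later, 2 members were called, as without it. On day 8, 14 members were called when a mean over 10 RPM was required, 13 in a fit of the 2 days alone and 13 with day 1 as the start. On day 4, 1 was called without a filter, 1 in a fit of the 2 days and 1 with the transcript length trend removed in each library, which left 0 on day 3 and 12 on day 6. Scaling to the 75th percentile gave a share ratio of 0.507, and voom on recovered reads called 1 member between double and single.

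Leaving out each replicate in turn gave 10 to 24 members on day 8 (10 without replicate 3) with medians from -0.84 to -0.63, 0 to 18 on day 4 (18 without replicate 1, 0 without replicate 3, 1 without replicate 4) with medians from -0.71 to -0.21, 3 to 6 from day 4 to day 8 with medians from -0.46 to -0.05, share ratios from 0.562 to 0.705, and 1 to 2 members between double and single (1 without replicate 2 or 3).

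Of 693 values of 37 named members on day 8 under alternatives, 543 kept direction and side of the threshold, 112 lost the call, 11 gained one and 27 changed sign. All sign changes were in members whose change was not called. Rpl23 turned to -0.14 under scaling to the 75th percentile, -0.058 with voom, -0.029 without replicate 4 and -0.076 without the X18 libraries of day 0 with the block, and ranged from -0.093 to 0.25 without replicates 3 and 1. Rpl4 turned to 0.42 under quantile normalization, 0.076 and 0.092 with the exon length trend removed from the change or in each library, 0.053 or, with the block, 0.17 without X14 on day 0, and ranged from -0.26 to 0.16 without replicates 3 and 1. Rpl5 ranged from -0.25 to 0.18 without replicates 4 and 3, and was 0.46 or, with the block, 0.40 without X18 on day 0. Rps19 turned to 0.024 under quantile normalization, 0.47 or 0.28 without X18, and 0.055 by transcript length. Rps2 ranged from -0.58 to 0.47 without replicates 3 and 1, and turned to 0.048 without X18 and 0.14 by transcript length. Rps27 turned to -0.045, -0.41 and -0.026 with the 75th percentile, quantiles and without X14, and ranged from -0.33 to 0.57 without replicates 4 and 2. Shallow depth limits members under 20 reads most.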
